A study of Mus musculus with 7 samples.

Results

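The comparison set melanoma cells pulsed with interferon gamma (IFNγ) and collected at a labelled 48 h against the same cells collected at 23.5 h. These are 2 of the 7 samples of the series. The cells were 1 stable clone of B16, a melanoma line from the C57Bl/6 mouse, kept below 5 passages, so every value describes that clone. Detached cells were given recombinant mouse IFNγ at 10 nM for 5 h, or medium without cytokine for the same 5 h (mock). They were then washed 3 times and plated in duplicate with 35000 cells in each well. PolyA RNA was sequenced. The mock groups at 48 h and 23.5 h, the IFNγ and mock groups at 91 h and the start group (T0) are used below only where they are named. The labels leave unstated from which moment the hours run and whether T0 cells had been pulsed. A gene was a member when both deposited tables listed it and its level was at least 20 normalised reads in either group. Normalised reads are reads per gene divided by the size factor of the library, with both tables set on 1 scale through their shared T0 values. That gave 12660 of the 13587 genes listed in any table, and 12635 of them had a value in each of the 4 libraries, 2 per group, and were tested.

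IFNγ is a cytokine released by activated T cells and natural killer cells. Its receptor, built from Ifngr1 and Ifngr2, works through the kinases Jak1 and Jak2, and the response includes Irf1, the class II transactivator Ciita and the class I transactivator Nlrc5. In tumour cells the response is known for antigen presentation on MHC molecules, for guanylate-binding proteins and immunity-related GTPases, and for the checkpoint ligand PD-L1. A wider group of interferon-stimulated genes, many of them carrying an interferon-stimulated response element, answers mainly to type 1 interferons.

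The 2 libraries at 48 h did not resemble each other as the libraries of the other groups did, and this comes before every result. The numbers 1 and 2 only tell the libraries of a group apart, 1 having the larger size factor, and pair nothing across groups. Between the libraries of a group, the log2 ratio had an SD of 0.431 with IFNγ at 48 h over the 5076 genes with a level of 1000 or more, and of 0.0685 with IFNγ at 23.5 h over 5149 such genes. In the other 5 groups it lay between 0.0680 and 0.150. At this level 78 genes were at least 2-fold higher in library 2 than in library 1 at 48 h and 50 were at least 2-fold lower, whereas 0 genes differed 2-fold in any other group. The 8 genes of at least 100 normalised reads with the largest excess in library 2 were H2-Eb1, H2-Ab1, Ciita, Apol6, H2-Aa, Gbp10, H2-DMa and Gbp8, genes of the class II pathway, an apolipoprotein L gene and guanylate-binding proteins. The 8 with the largest excess in library 1 were Sorcs2, Lif, Rgs16, Ppp1r15a, Bcl3, Prkg2, Tenm4 and Chd5. Lif, a cytokine of the interleukin-6 family, stood at 1179 normalised reads in library 1 and 203 in library 2 at 48 h, against 54.9 and 70.4 at 23.5 h. Over 5526 genes, library 1 lay closest to the mock mean at 48 h (SD of the log2 ratio 0.282) and further from the IFNγ mean at 23.5 h (0.581). Library 2 lay at 0.468 from the mock mean at 48 h and at 0.421 from the IFNγ mean at 23.5 h. Whether both libraries carry the pulse and time of their label was not tested, nor was any other cause of the disagreement, and every mean at 48 h rests on this pair.

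**Figure D1:**
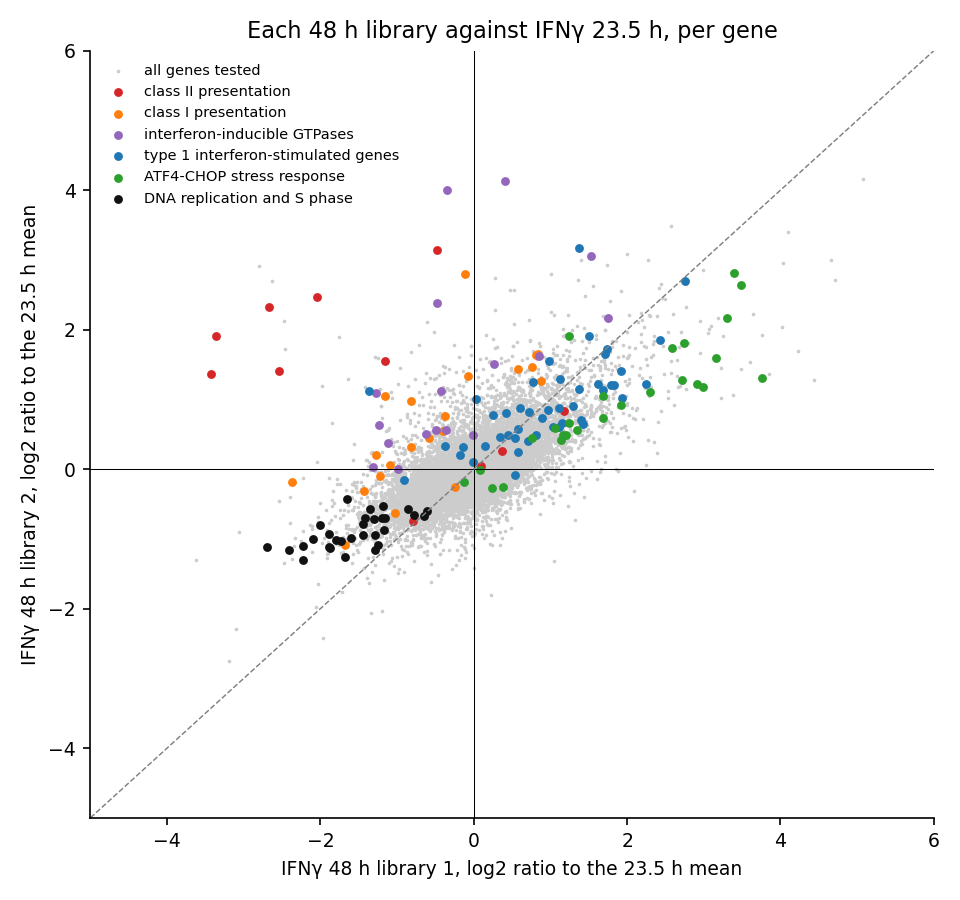
Each point is a tested gene, with the log2 ratio of library 1 at 48 h to the 23.5 h mean on the x axis and that of library 2 on the y axis; coloured points are members of 6 gene lists and the dashed line marks equal ratios. Class II, class I and GTPase genes reach the upper left, with library 2 above and library 1 below the 23.5 h mean, while S phase genes lie at the lower left and most stress response genes at the upper right.

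For this reason the place of each 48 h library against both 23.5 h libraries is given beside each test. Of the 12635 genes, both 48 h libraries were above both 23.5 h libraries in 4009 (31.7%) and below in 4405 (34.9%). Library 2 was above and library 1 below in 1154 (9.13%), library 1 above and library 2 below in 1246 (9.86%), and in 1821 (14.4%) a 48 h library lay between the 23.5 h libraries, called an overlap below. With limma, a moderated linear model fitted here to log2(normalised reads + 1) over all genes, 201 genes (1.59%) were higher and 134 (1.06%) lower at 48 h at an adjusted p under 0.05, together 2.65%, and the smallest adjusted p was 0.038. By comparison 1981 and 2122 were higher and lower at an unadjusted p under 0.05. The words rose and fell are used below only for genes past the adjusted threshold. All 201 higher genes, and 133 of the 134 lower ones, also had their groups separated by at least 1.5-fold between the nearest libraries, which held for 735 (5.82%) and 458 (3.62%) of all genes. Of the limma calls 143 and 38 were past 2-fold. By size alone 571 genes (4.51%) were past 2-fold higher and 195 (1.54%) past 2-fold lower. Each limma call rests on both 23.5 h libraries. Without either one of them limma called 0 genes, with 778 higher and 559 lower at an unadjusted p under 0.05 without library 1 and 781 and 577 without library 2. Without library 1 at 48 h it called 3254 (25.7%) higher and 3848 (30.4%) lower, and without library 2 4045 (32.1%) and 4351 (34.5%), a fit in which the remaining 48 h library is taken to vary as little as the 23.5 h pair. Whether the libraries of a group stem from different cultures is not in the labels. The p-values therefore speak only of the scatter of these libraries, which may be technical. In bulk RNA, fewer cells of a kind and less RNA per cell cannot be told apart.

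**Figure D2:**
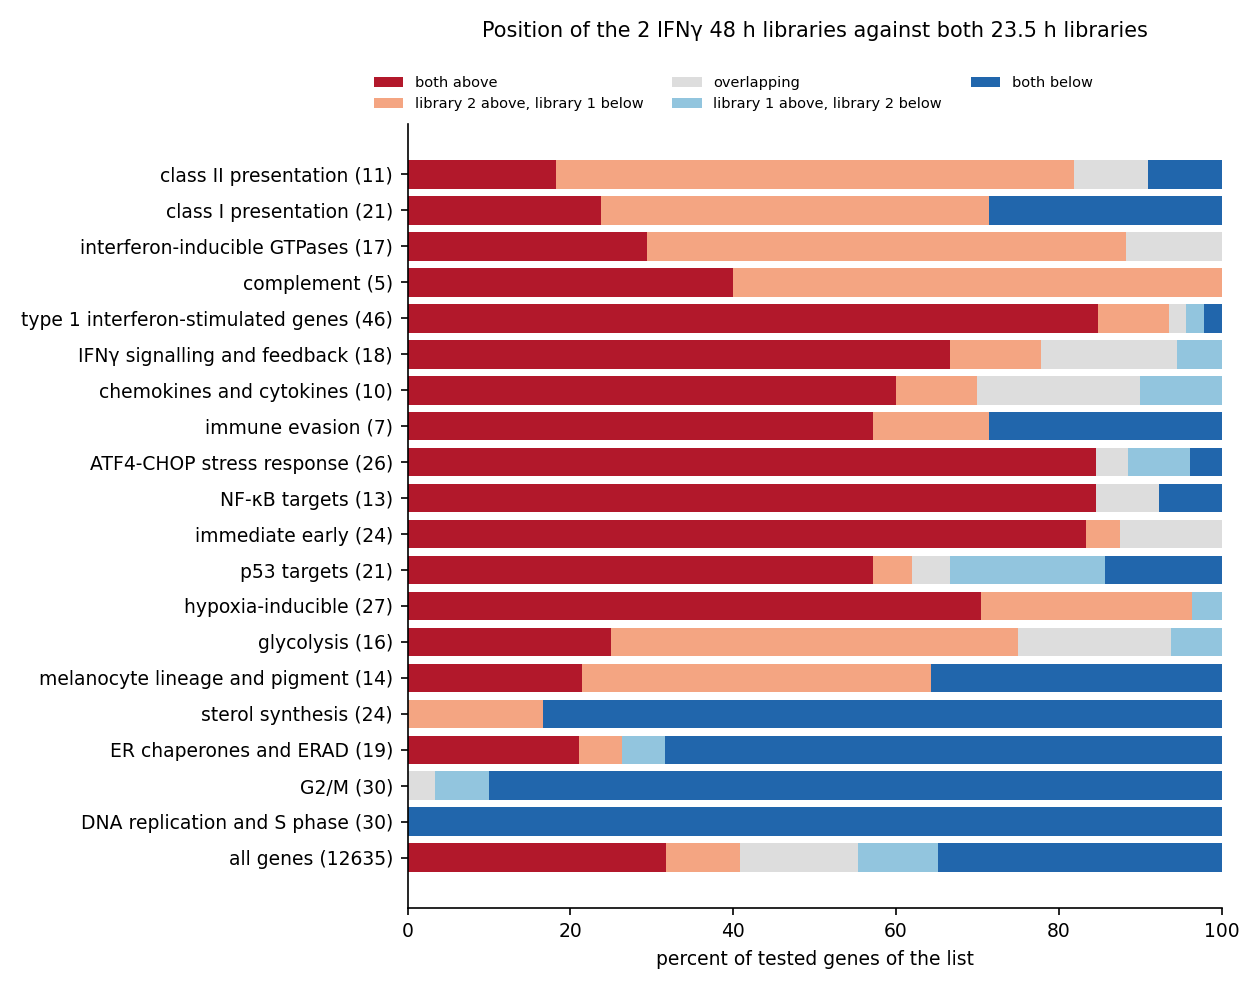
Bars give, for each gene list (number of tested genes in brackets) and for all genes, the percent whose 48 h libraries lie above or below both 23.5 h libraries. Lists of the class I, class II and GTPase genes hold large shares with library 2 above and library 1 below, whereas 39 of 46 type 1 interferon-stimulated genes have both libraries above and all 30 S phase genes have both below.

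The genes for antigen presentation on class II molecules gave opposite answers in the 2 libraries at 48 h. The promoter windows of H2-Aa, which encodes a chain of I-A, and H2-Eb1, which encodes a chain of I-E, are shown. Both were among the genes with the widest gap between the libraries. They are RefSeq sequences of build GRCm38.p6, from 250 bases before to 50 after the start, 5′ to 3′ on the strand of the gene, with each CCAAT (on either strand) in capitals. This is the core of the Y box, the element bound by NF-Y in class II promoters. H2-Aa lies at chr17:34287774-34288073 on the minus strand and H2-Eb1 at chr17:34305617-34305916 on the plus strand.
H2-Aa: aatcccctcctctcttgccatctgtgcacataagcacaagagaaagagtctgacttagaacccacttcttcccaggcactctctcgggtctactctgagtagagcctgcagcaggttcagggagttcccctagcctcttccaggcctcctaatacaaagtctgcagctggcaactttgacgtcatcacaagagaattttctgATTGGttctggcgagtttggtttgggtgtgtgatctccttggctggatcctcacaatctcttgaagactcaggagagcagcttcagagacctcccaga
H2-Eb1: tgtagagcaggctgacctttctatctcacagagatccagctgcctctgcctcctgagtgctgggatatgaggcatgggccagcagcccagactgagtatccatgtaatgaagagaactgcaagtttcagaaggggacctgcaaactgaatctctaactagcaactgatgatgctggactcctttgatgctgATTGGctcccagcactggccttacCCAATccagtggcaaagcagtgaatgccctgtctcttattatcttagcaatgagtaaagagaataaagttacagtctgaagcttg
The match in H2-Aa begins 48 bases before the start, and those in H2-Eb1 59 and 35 bases before it. CCAAT occurred in 6 of the 7 class II promoters with a sequence, in 43.3% of 8945 promoters of tested genes and in 37.4% of all 32851. It was also in 12 of 17 class I promoters, 16 of 23 of the stress response list described below and 15 of 24 of the S phase list.

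Ciita, the coactivator without which class II genes are silent (chromosome 16, 10480059 to 10528418, GRCm38), had 17.3 and 504 normalised reads in libraries 1 and 2 at 48 h, against 198 and 193 at 23.5 h. H2-Aa, the alpha chain of I-A, had 250 and 5706 at 48 h against 1027 and 1041 at 23.5 h. H2-Ab1, its beta chain, had 85.0 and 2749 at 48 h, against 557 and 541 at 23.5 h. In all 3 genes library 1 was the lowest of the 4 libraries and library 2 the highest. H2-Eb1 followed with 58.3 and 2288 at 48 h against 600 and 618 at 23.5 h, and H2-DMa, a chain of the peptide exchange factor, with 57.5 and 903 against 361 and 320. Cd74, the invariant chain, had 2052 and 25217 at 48 h, against 2775 and 2946 at 23.5 h. The 23.5 h libraries agreed closely in each of these genes, and lay between the 48 h libraries. The limma estimate for H2-Aa was a log2 change of 0.21 (SE 1.49, adjusted p = 0.935), and it was -2.04 without library 2 and 2.46 without library 1. For Ciita it was -1.03 (SE 1.58, adjusted p = 0.681), and -3.42 and 1.36 in the same order. No direction between the times can be read for these genes from the mean of the libraries.

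Of the 11 class II genes tested, 7 had library 2 above and library 1 below both 23.5 h libraries, 2 had both above, 1 had both below and 1 overlapped. The median log2 ratio to 23.5 h was 1.41 for library 2 and -1.15 for library 1, against -0.02 and -0.01 over all genes. Limma called 0 of them higher and 1 lower, 8 higher and 1 lower without library 1, and 2 higher and 8 lower without library 2. Ifi30, the lysosomal thiol reductase, was the called gene: it had 458 and 476 at 48 h against 817 and 773 at 23.5 h, and fell by 0.77 (SE 0.11, adjusted p = 0.0498). Its mock values also lay lower at 48 h, with a log2 ratio of -0.74. Rfx5, a subunit of the RFX complex that binds class II promoters, had 755 and 596 at 48 h against 335 and 330 at 23.5 h (log2 change 1.01, SE 0.15, adjusted p = 0.0518). Rfx5 was thus higher in both libraries without passing the test, and in mock cells it had 809 and 682 at 48 h against 319 and 290 at 23.5 h.

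Genes for presentation on class I molecules and the interferon-inducible GTPases, which act on the vacuoles of intracellular pathogens, divided the libraries in the same way but less widely. Library 2 was the higher at 48 h in all the genes named in this paragraph. Nlrc5, the class I transactivator (chromosome 8, 94434356 to 94527272), had 1713 and 3485 at 48 h against 2558 and 2558 at 23.5 h, a log2 change of -0.07 (SE 0.35, adjusted p = 0.912). Tap1, a subunit of the peptide transporter, had 3404 and 7521 at 48 h against 4443 and 4391 at 23.5 h. Library 1 was thus the lowest and library 2 the highest. Psmb8 and Psmb9, catalytic subunits of the immunoproteasome, showed the same order, with 664 and 3059 against 1468 and 1501 for Psmb8 and 1041 and 3604 against 1844 and 1819 for Psmb9. Psmb10, the remaining catalytic subunit, had both libraries below, at 601 and 2751 against 3055 and 3178. The classical heavy chains had both libraries above. H2-K1 had 22771 and 40608 at 48 h against 12738 and 13280 at 23.5 h (log2 change 1.23, SE 0.30, adjusted p = 0.0768), and H2-D1 had 23152 and 42116 against 15414 and 15561 (1.01, SE 0.30, adjusted p = 0.107). Calr, a chaperone of class I assembly in the endoplasmic reticulum, had 8039 and 12160 against 26164 and 25476, both libraries below. The median log2 ratio of the means was 0.23 over 22 class I genes with IFNγ. In mock cells it was 1.38 over the 19 with a mock value at both times. Of 21 class I genes tested 0 passed limma (5 higher and 2 lower at an unadjusted p under 0.05), 10 had library 2 above and library 1 below, 5 had both above and 6 both below. Without library 1 14 were called higher and 5 lower, and without library 2 5 higher and 14 lower. H2-Q and H2-T genes are near copies of one another, and how reads matching several places were counted is not given in the sources used here, so their values, such as 908 and 6867 for H2-T23 at 48 h against 959 and 1007 at 23.5 h, are uncertain.

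Of 17 GTPase genes, 10 had library 2 above and library 1 below, 5 had both above, 2 overlapped and 0 had both below. Gbp5, a guanylate-binding protein that promotes inflammasome assembly, was the only 1 to pass limma. It had 307 and 411 at 48 h against 90.0 and 91.3 at 23.5 h, and rose by 1.96 (SE 0.19, adjusted p = 0.0443). Igtp, an immunity-related GTPase of the GMS class (chromosome 11, 58199556 to 58207591), had 2820 and 10301 at 48 h against 6689 and 6589 at 23.5 h. Gbp2 had 4194 and 11785 against 9042 and 9209, and Iigp1 had 5148 and 15079 against 6957 and 6909. These 3 had library 1 lowest and library 2 highest. Gbp8, Gbp9 and Gbp10 are near copies and uncertain: Gbp10 had 66.1 and 1372 against 88.1 and 80.8, and Gbp9 had 561 and 1624 against 173 and 218, with both libraries above. The median log2 ratio to 23.5 h was 1.09 for library 2 and -0.43 for library 1. By the means it was 0.34 with IFNγ, and in mock cells it was 2.78 over the 8 genes with a mock value at both times. Over mock cells at 48 h, on the scale joined through T0, the medians were 3.03 for library 2 and 1.82 for library 1 over the 13 GTPase genes with a mock value, and 2.35 and 1.21 over 21 class I genes, so both libraries lay above mock in both lists by this median. Over the 7 class II genes with a mock value they were -0.02 and 0.09. H2-Aa, H2-Ab1, H2-Eb1 and Ciita had no mock value at 48 h and are not among the 7. These medians therefore do not show whether the main class II genes lay above mock. Limma called 15 of the 17 GTPase genes higher and 0 lower without library 1, and 4 higher and 10 lower without library 2.

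The promoters of Igtp and Gbp2 are shown because these GTPases share an interferon-stimulated response element close to the start. The windows are from RefSeq in GRCm38.p6, 250 bases before to 50 after the start, with GAAA, any 2 bases and GAAA again, read on either strand, in capitals. Igtp lies at chr11:58199306-58199605 on the plus strand and Gbp2 at chr3:142620413-142620712 on the plus strand.
Igtp: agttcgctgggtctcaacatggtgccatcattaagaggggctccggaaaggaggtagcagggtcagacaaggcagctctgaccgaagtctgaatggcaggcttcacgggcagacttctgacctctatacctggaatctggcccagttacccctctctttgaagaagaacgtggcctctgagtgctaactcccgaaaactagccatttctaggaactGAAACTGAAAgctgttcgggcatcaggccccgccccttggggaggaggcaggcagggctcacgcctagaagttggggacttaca
Gbp2: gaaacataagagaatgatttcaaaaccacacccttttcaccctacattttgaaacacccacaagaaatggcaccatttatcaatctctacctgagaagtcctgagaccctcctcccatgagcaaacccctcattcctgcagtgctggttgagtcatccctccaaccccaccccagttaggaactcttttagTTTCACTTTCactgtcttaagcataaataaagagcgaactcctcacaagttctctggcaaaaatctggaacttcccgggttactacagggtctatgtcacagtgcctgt
The match begins 34 bases before the start in Igtp and 59 before it in Gbp2. This motif, the core of the element and bound by Irf factors, occurred in 9 of the 10 GTPase promoters with a sequence, in 4 of 17 class I promoters and in 0 of 7 class II promoters, against 3.72% of promoters of tested genes and 3.44% of all promoters.

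The interferon-stimulated genes usually listed for type 1 interferon were higher at 48 h in both libraries, unlike the preceding groups. Of 46 genes, 39 had both libraries above both 23.5 h libraries and 13 passed limma as higher, with 0 lower. These were Isg20, Rsad2, Mx2, Oas2, Oasl1, Ifi44, Dhx58, Dtx3l, Xaf1, Trim30a, Samd9l, Sp100 and Irf7. The medians of library 1 and library 2 were 0.97 and 0.83, close to each other, and 21 genes were past 2-fold. By the means the median log2 ratio was 0.89 with IFNγ. In mock cells it was larger, at 2.64 over the 44 genes with a mock value at both times. Ifi44 had 1778 and 1718 at 48 h, against 225 and 306 at 23.5 h, and rose by 2.73 (SE 0.18, adjusted p = 0.0443). Irf7, the transcription factor that amplifies type 1 interferon (chromosome 7, 141262706 to 141266481), had 2113 and 2032 against 591 and 706, and rose by 1.68 (SE 0.13, adjusted p = 0.0443). Isg20, an exonuclease, had 384 and 510 against 134 and 135 (1.71, SE 0.18, adjusted p = 0.0443). Rsad2, which encodes the antiviral enzyme viperin, had 9431 and 7135 against 2819 and 3322 (1.42, SE 0.18, adjusted p = 0.047). In each of these 4 genes the lowest 48 h library was above the highest 23.5 h library. Isg15, a ubiquitin-like modifier, had 5108 and 3902 at 48 h against 1936 and 2223 at 23.5 h, and just missed the threshold (1.11, SE 0.17, adjusted p = 0.0516). Ifit3, a gene of the interferon-induced Ifit family, had 10802 and 7154 against 2880 and 3358 (adjusted p = 0.0516). Trim30a, at 4169 and 4129 against 1123 and 1395, and Ifit3 have near copies and are uncertain. With either 48 h library alone most of the list was called: 43 higher and 1 lower without library 1, and 39 and 5 without library 2.

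The Isg15 and Ifit3 promoters, RefSeq windows of the same build and extent, show the same element as in the GTPase promoters, again in capitals and on either strand. Isg15 lies at chr4:156200769-156201068 on the minus strand and Ifit3 at chr19:34583279-34583578 on the plus strand.
Isg15: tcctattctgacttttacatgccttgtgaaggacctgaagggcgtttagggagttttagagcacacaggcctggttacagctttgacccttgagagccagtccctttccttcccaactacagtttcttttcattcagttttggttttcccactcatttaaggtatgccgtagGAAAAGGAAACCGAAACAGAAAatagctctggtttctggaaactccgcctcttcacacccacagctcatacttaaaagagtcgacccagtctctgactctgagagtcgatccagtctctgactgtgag
Ifit3: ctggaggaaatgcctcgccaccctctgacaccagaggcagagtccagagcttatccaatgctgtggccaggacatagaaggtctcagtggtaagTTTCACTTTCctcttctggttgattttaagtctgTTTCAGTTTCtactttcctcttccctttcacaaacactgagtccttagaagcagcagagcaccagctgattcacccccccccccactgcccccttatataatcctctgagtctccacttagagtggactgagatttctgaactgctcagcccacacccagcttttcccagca
Isg15 held 3 overlapping matches, beginning 78, 72 and 66 bases before the start, printed as 1 run of capitals, and Ifit3 held matches 156 and 122 bases before it. The motif occurred in 14 of 35 promoters of this list.

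The change between the times was compared with that of mock cells by the interaction term in limma, over 8 libraries. IFNγ and mock values stand in tables that were normalised separately and are joined through T0. Of 12453 genes, 38 (0.305%) had a smaller change with IFNγ than with mock and 0 a larger one, with 319 and 213 at an unadjusted p under 0.05. Without a variance trend 17 and 0 passed. These were interferon-stimulated genes in the main: 22 of the 38 belong to the list of 46. In mock cells they stood 1.67-fold to 19.8-fold higher at 48 h than at 23.5 h, with a median log2 ratio of 2.88, against 0.81 with IFNγ. At 48 h the IFNγ mean was still above the mock mean in 36 of the 38, the exceptions being Slc2a6 and Ddx58.

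Isg15, given above for IFNγ, had 2845 and 2175 in mock cells at 48 h against 198 and 154 at 23.5 h, so its mock groups lay further apart, and the difference of the changes was -2.72 (SE 0.27, adjusted p = 0.0123). Gbp3 had 2680 and 3817 with IFNγ at 48 h against 2632 and 2781 at 23.5 h, and 1379 and 994 in mock cells at 48 h against 131 and 108 (difference -3.05, SE 0.29, adjusted p = 0.0123). Its IFNγ groups overlapped and its mock groups lay far apart. Irf7 also differed (-2.39, adjusted p = 0.0172), with 1466 and 1183 in mock cells at 48 h against 91.8 and 65.0 at 23.5 h. Lgals9, which encodes galectin 9, had 3993 and 3768 with IFNγ at 48 h against 4066 and 4343, and 3856 and 3568 in mock cells at 48 h against 2227 and 2211. Its difference, -0.86 (SE 0.11, adjusted p = 0.0332), was the smallest of the 38. Both IFNγ libraries at 48 h were above both at 23.5 h in 31 of the 38, and 13 of the 38 passed the test of 48 h against 23.5 h. All 38 were also called without IFNγ library 1 and without IFNγ library 2 at 48 h, when 1072 and 166 genes in all had a smaller change and 875 and 37 a larger one. Without either IFNγ library at 23.5 h, without mock library 1 at 48 h or without mock library 2 at 23.5 h limma called 0 genes, and without mock library 2 at 48 h or mock library 1 at 23.5 h it called 19 and 7, all smaller. The interferon-stimulated response element described above occurred in 17 of 29 of their promoters. For Igtp the difference was -3.85 (SE 0.70, adjusted p = 0.16), the IFNγ libraries being too far apart to pass.

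**Figure D3:**
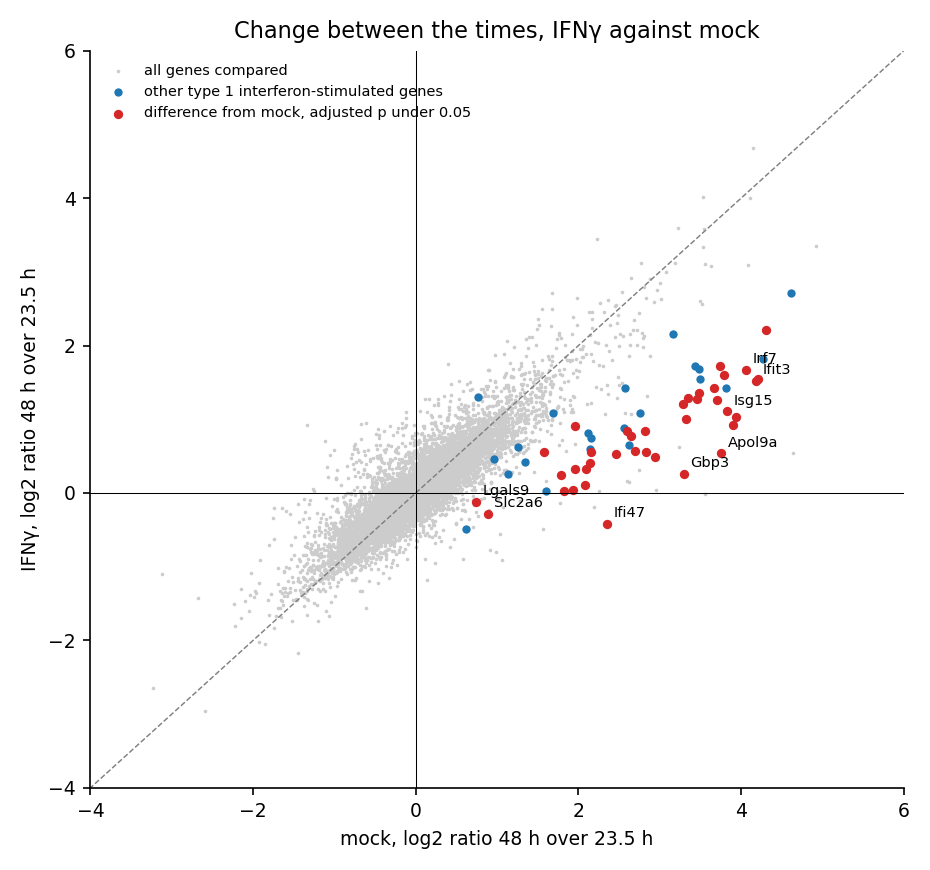
Each point is a gene with its mock log2 ratio of 48 h over 23.5 h on the x axis and its IFNγ ratio on the y axis; red points are the 38 genes whose changes differed by limma and blue points other type 1 interferon-stimulated genes. The red points lie right of the dashed line of equal change, with IFNγ ratios near a median of 0.81 and mock ratios near 2.88.

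No gene of IFNγ signalling itself passed limma between the times. The receptor chains Ifngr1, at 635 and 625 at 48 h against 493 and 517 at 23.5 h, and Ifngr2, at 1604 and 1367 against 1203 and 1178, were higher in both libraries (limma adjusted p = 0.123 and 0.151). Jak1 had 4594 and 4000 against 3598 and 3632, and Jak2 had 1733 and 1820 against 1453 and 1407, with both libraries above in each. Irf1, a transcription factor of the early response, had 2179 and 4114 against 2869 and 2760 (adjusted p = 0.867), with library 1 lowest and library 2 highest. Socs1, the feedback inhibitor of the kinases, had 92.1 and 172 against 96.6 and 68.5, and its groups overlapped. Of 18 signalling genes 0 passed, 8 were higher and 0 lower at an unadjusted p under 0.05, and 12 had both libraries above. In the comparison with mock, 2 of the 17 tested had a smaller change with IFNγ and 0 a larger one, beside 38 of 12453 over all genes. Usp18, a protease that removes Isg15 and dampens interferon signalling, had 3983 and 1952 against 722 and 965.

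Of 7 immune evasion genes tested 3 rose, 0 fell by limma, and 2 had both libraries below both 23.5 h libraries. Cd274, which encodes PD-L1 (chromosome 19, 29367455 to 29388095), had 1660 and 2015 at 48 h against 816 and 788 at 23.5 h, and rose by 1.19 (SE 0.13, adjusted p = 0.0443). Cd47, the signal against phagocytosis, had 3206 and 3147 against 1640 and 1746 (0.91, SE 0.09, adjusted p = 0.0443), and Pvr, a ligand of Tigit, had 2732 and 2660 against 1504 and 1537 (0.83, SE 0.09, adjusted p = 0.0443). In all 3 the groups were apart. Mock cells also had more Cd274 at 48 h, at 964 and 743 against 246 and 213. Among 10 chemokine and cytokine genes, Ccl5, a chemokine for T cells, and Vegfa, the vascular growth factor, rose and 0 fell. Ccl5 had 774 and 600 at 48 h against 137 and 118 at 23.5 h (2.41, SE 0.18, adjusted p = 0.0443), and in mock cells 723 and 645 against 142 and 100. Cxcl10, a chemokine that draws T cells through Cxcr3, split the libraries in the other direction, with 18382 and 6532 at 48 h against 7538 and 7862 at 23.5 h (0.51, SE 0.50, adjusted p = 0.517). Cxcl11, another chemokine gene, had 773 and 324 against 190 and 188, again higher in library 1.

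Over all genes, those that stood apart most clearly in both libraries had varied roles, with Ifi44 of the interferon-stimulated list among them. The 15 genes of at least 100 normalised reads with the widest separation upward were Tnfrsf9, Egr1, Car9, Ddit3, Stc1, Angptl6, Vldlr, Ifi44, Hoxb9, Pak3, Cp, Aire, Zfr2, AI607873 and Shank1, of which 13 passed limma. All 14 of them with a mock value were also higher in mock cells at 48 h, and 0 differed from mock. Tnfrsf9, the costimulatory receptor 4-1BB, had 351 and 185 at 48 h against 8.52 and 10.5 at 23.5 h, and rose by 4.61 (SE 0.37, adjusted p = 0.0443), while mock cells had 265 and 199 against 11 and 13.4. Egr1, an immediate early transcription factor, had 2377 and 1122 against 133 and 156 (3.50, SE 0.38, adjusted p = 0.0443). Stc1, a secreted glycoprotein hormone, had 1345 and 1247 against 199 and 194 (2.71, SE 0.11, adjusted p = 0.038). Cp, the copper ferroxidase ceruloplasmin, had 1397 and 1033 against 212 and 197, and Aire, a regulator of self-antigen expression in the thymus, had 729 and 828 against 150 and 124. That the groups of these 5 genes do not overlap follows from the rule that picked them.

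**Figure D4:**
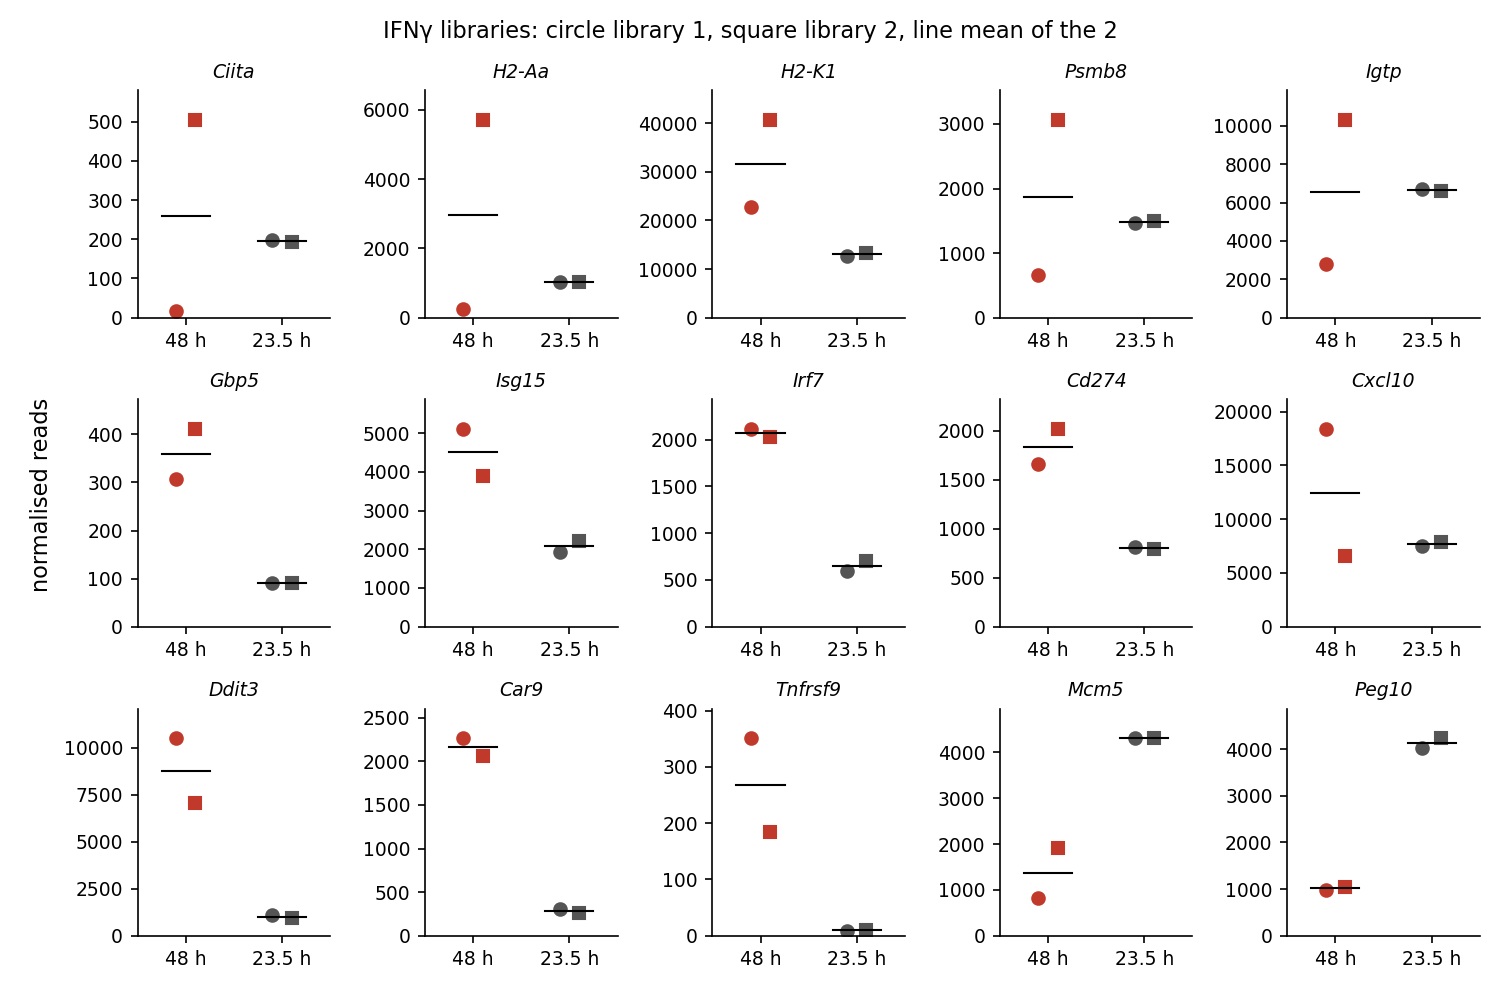
Normalised reads of 15 genes in the IFNγ libraries at 48 h (red) and 23.5 h (grey), each panel with its own linear axis from 0; circles are library 1, squares library 2 and lines the mean. Ciita, H2-Aa, Psmb8 and Igtp have 1 library on each side of the 23.5 h values and Cxcl10 the reverse, while Gbp5, Irf7, Cd274, Ddit3, Car9 and Tnfrsf9 have both above and Mcm5 and Peg10 both below.

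The transcription factors Atf4 and Ddit3 (CHOP) and their targets, which answer to amino acid shortage and stress of the endoplasmic reticulum, were higher at 48 h. Of 26 genes 4 rose, 0 fell, 16 were past 2-fold and 22 had both libraries above, with a median log2 ratio of 1.45 with IFNγ and 1.48 in mock cells. Ddit3 (chromosome 10, 127290774 to 127296288) had 10517 and 7063 at 48 h against 1092 and 921 at 23.5 h, and rose by 3.10 (SE 0.22, adjusted p = 0.0443). Trib3, a pseudokinase induced by CHOP, had 9894 and 4496 against 1027 and 969 (2.74, SE 0.39, adjusted p = 0.0498). Atf5 had 8100 and 4249 against 1246 and 1170 (2.28, SE 0.32, adjusted p = 0.0498). Library 1 was the higher in these 3, and all groups were apart. Asns, asparagine synthetase, had 13073 and 7636 against 5188 and 5124, and did not pass (adjusted p = 0.0978). The list had a median of 1.68 in library 1 and 0.99 in library 2. It was called in 22 genes higher and 3 lower without library 1, and in 24 higher and 1 lower without library 2.

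Targets of NF-κB and immediate early genes leaned to library 1 in the same way. Of 13 NF-κB targets 11 had both libraries above and 1, Tnfaip3, rose, with 0 lower. Tnfaip3, the ubiquitin-editing inhibitor of the pathway, had 210 and 298 at 48 h against 62.5 and 66.6 at 23.5 h (1.94, SE 0.22, adjusted p = 0.0448). Relb had 2036 and 492 against 196 and 165, apart from 23.5 h in both libraries but without passing. The median of the list was 1.45 in library 1 and 0.45 in library 2. Of 24 immediate early genes 3 rose, 0 fell and 20 had both libraries above, with medians of 1.03 in library 1 and 0.62 in library 2. Besides Egr1 these were Klf6, at 5476 and 5235 against 2653 and 2690 (1.00, SE 0.09, adjusted p = 0.0443), and the phosphatase gene Dusp1, at 408 and 480 against 159 and 191 (1.34, SE 0.17, adjusted p = 0.047).

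Hypoxia-inducible genes were higher, and here library 2 was more often the higher. Of 27 genes 3 rose, 0 fell, 19 had both libraries above and 7 had library 2 above and library 1 below, with medians of 0.33 in library 1 and 0.91 in library 2. The median log2 ratio of the means was 0.65 with IFNγ and 0.27 in mock cells. Car9, a carbonic anhydrase of low-oxygen cells (chromosome 4, 43506966 to 43513729), had 2266 and 2058 at 48 h against 310 and 260 at 23.5 h, and rose by 2.92 (SE 0.14, adjusted p = 0.038). Mock cells had 2289 and 1901 against 398 and 269. Vegfa had 5773 and 5543 against 1679 and 1619 (1.78, SE 0.09, adjusted p = 0.0415), and Ero1l, an oxidase of the endoplasmic reticulum, had 18442 and 22352 against 5616 and 5609 (1.85, SE 0.13, adjusted p = 0.0443). The libraries of each time lay close together in these 3 genes. Bnip3, a mitophagy receptor, had 2629 and 6301 against 1779 and 1909, and Ldha, lactate dehydrogenase, had 17866 and 42265 against 31122 and 31767. Library 2 was the higher in both of these, and for Ldha library 1 lay below 23.5 h. Of 16 glycolysis genes 1 rose, Eno2, at 635 and 434 against 138 and 112 (2.07, SE 0.24, adjusted p = 0.0448), 0 fell, and 8 had library 2 above and library 1 below.

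Genes of DNA replication were lower at 48 h in both libraries, without exception in the list. All 30 S phase genes tested had both 48 h libraries below both 23.5 h libraries, 20 were past 2-fold, 6 fell by limma and 0 rose. Among the 6 were Mcm10, Tyms, Gins1, Pola1 and Rpa2. The median log2 ratio was -1.17 with IFNγ and -1.29 in mock cells, and it was -1.45 in library 1 and -0.94 in library 2. All 30 were called lower without library 1 at 48 h and also without library 2. Mcm10, which activates the replicative helicase, had 924 and 1030 at 48 h against 2185 and 2200 at 23.5 h, and fell by 1.17 (SE 0.10, adjusted p = 0.0443). Gins1, a helicase cofactor, had 199 and 218 against 464 and 510 and fell by 1.22 (SE 0.13, adjusted p = 0.0443). Rpa2, a single-strand binding protein, had 438 and 584 against 1358 and 1444 and fell by 1.47 (SE 0.17, adjusted p = 0.0448). Mcm5, a subunit of the helicase, had 812 and 1922 against 4310 and 4304, clearly apart but with unlike 48 h libraries (-1.78, SE 0.42, adjusted p = 0.0736). Mock cells had 1008 and 1420 for Mcm5 at 48 h against 4265 and 4189.

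The Mcm5 promoter is shown as an S phase promoter with E2F matches, from RefSeq in GRCm38.p6, chr8:75109259-75109558 on the plus strand, with TTTCGCGC or TTTGGCGC (either strand) in capitals.
Mcm5: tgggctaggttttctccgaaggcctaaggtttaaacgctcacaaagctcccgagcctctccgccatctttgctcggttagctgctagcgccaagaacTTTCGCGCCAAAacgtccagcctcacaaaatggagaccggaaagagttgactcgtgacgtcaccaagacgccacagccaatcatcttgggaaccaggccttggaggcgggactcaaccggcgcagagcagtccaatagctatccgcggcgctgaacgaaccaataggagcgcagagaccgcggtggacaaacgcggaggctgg
The matches overlap in 1 run and begin 153 and 149 bases before the start. Either form occurred in 9 of 24 S phase promoters, in 1.86% of promoters of tested genes and in 0.813% of all promoters.

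Genes of mitosis moved in the same direction by less. Of 30 G2/M genes 27 had both libraries below, 2 fell and 0 rose, with a median of -0.49 with IFNγ and -0.43 in mock cells. Ccnb1, cyclin B1, had 1448 and 1528 at 48 h against 2381 and 2294 at 23.5 h and fell by 0.65 (SE 0.09, adjusted p = 0.0498). Plk1, a mitotic kinase, had 2010 and 2252 against 3764 and 3700 and fell by 0.81 (SE 0.10, adjusted p = 0.0472). Mki67, the proliferation marker, had 9661 and 6809 against 12561 and 11552, below in both libraries and not called (adjusted p = 0.132).

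The 15 genes with the widest separation downward were Mest, Abca12, Peg10, Sfxn2, Orc1, Tfrc, Cdc6, Gcat, Hsph1, Rpa2, Gm15428, Mcm5, Uchl1, 2700094K13Rik and Mcm4. Of these 7 passed limma, and all 15 were also lower in mock cells at 48 h, with 0 differing from mock. Mest and Peg10 are imprinted genes expressed from the paternal copy. Mest had 26.0 and 35.6 at 48 h against 220 and 274 at 23.5 h, and fell by 2.97 (SE 0.24, adjusted p = 0.0443). Peg10 (chromosome 6, 4747306 to 4760517) had 990 and 1053 against 4032 and 4239, and fell by 2.02 (SE 0.09, adjusted p = 0.038). Tfrc, the transferrin receptor through which cells take up iron, had 2516 and 2264 against 6117 and 6481, and fell by 1.40 (SE 0.10, adjusted p = 0.0443). Abca12, a lipid transporter, had 243 and 428 against 2062 and 2136, and fell by 2.70 (SE 0.28, adjusted p = 0.0443). That both 48 h libraries lay below both 23.5 h libraries in these 4 genes follows from the rule that picked them. The log2 ratios in mock cells were -1.93 for Peg10 and -1.59 for Tfrc.

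Among 24 sterol synthesis genes 20 had both libraries below, 4 had library 2 above and library 1 below, and 0 passed limma, with 4 lower and 0 higher at an unadjusted p under 0.05. Hmgcs1, which makes the precursor of mevalonate, had 1267 and 3063 at 48 h against 3655 and 3713 at 23.5 h. The list had a median of -1.12 in library 1 and -0.12 in library 2, and 10 genes were called lower and 1 higher without library 1, against 23 lower and 0 higher without library 2. Of 19 chaperone and degradation genes of the endoplasmic reticulum 2 fell and 0 rose. They were Creld2, at 606 and 756 against 1411 and 1312 (-1.01, SE 0.14, adjusted p = 0.0498), and Dnajb11, at 2103 and 2130 against 3304 and 3215 (-0.62, SE 0.09, adjusted p = 0.0498). Hspa5, the main chaperone of that compartment, had 30214 and 19099 against 25681 and 25433, with the libraries on opposite sides.

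Of 14 pigment cell genes 0 passed limma, with 1 higher and 3 lower at an unadjusted p under 0.05. Mlana, a melanosome protein and tumour antigen, had 4635 and 11762 at 48 h against 23524 and 23126 at 23.5 h, with both libraries below (-1.66, SE 0.45, adjusted p = 0.0924), and mock cells had 3990 and 5219 against 21439 and 21941. Mitf, the lineage transcription factor, had 14488 and 19640 against 16100 and 16413, and Tyr, tyrosinase, had 14917 and 19723 against 17286 and 18407. In both of these library 1 was lowest and library 2 highest. Of 8 dedifferentiation genes 1 rose, the receptor kinase gene Axl, at 1314 and 1430 against 499 and 464 (1.51, SE 0.11, adjusted p = 0.0443), with 0 lower. In 14 control genes 0 rose and 1, Tfrc, fell. Hprt, a purine salvage enzyme, had 2365 and 2919 against 2807 and 2736, and Gapdh had 11736 and 20445 against 12373 and 13537.

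Set in the whole course, the groups followed different paths. By the authors' means, Mcm5 had 4338 normalised reads in T0, 4307 with IFNγ at 23.5 h, 1367 at 48 h and 113 at 91 h. Ddit3 ran the other way, at 564, 1007, 8790 and 15526. Car9 stood at 562, 285, 2162 and 1185, highest at 48 h. H2-Aa stood at 1.63, 1034, 2978 and 61.2, but the 48 h value is a mean of 250 and 5706. Igtp stood at 45, 6639, 6560 and 1944, and here too the 48 h mean covers 2820 and 10301, so the 2 nearly equal means do not show that the level held. Isg15 stood at 142, 2079, 4505 and 5264 with IFNγ, beside 176, 2510 and 4814 in mock cells at 23.5, 48 and 91 h.

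**Figure D5:**
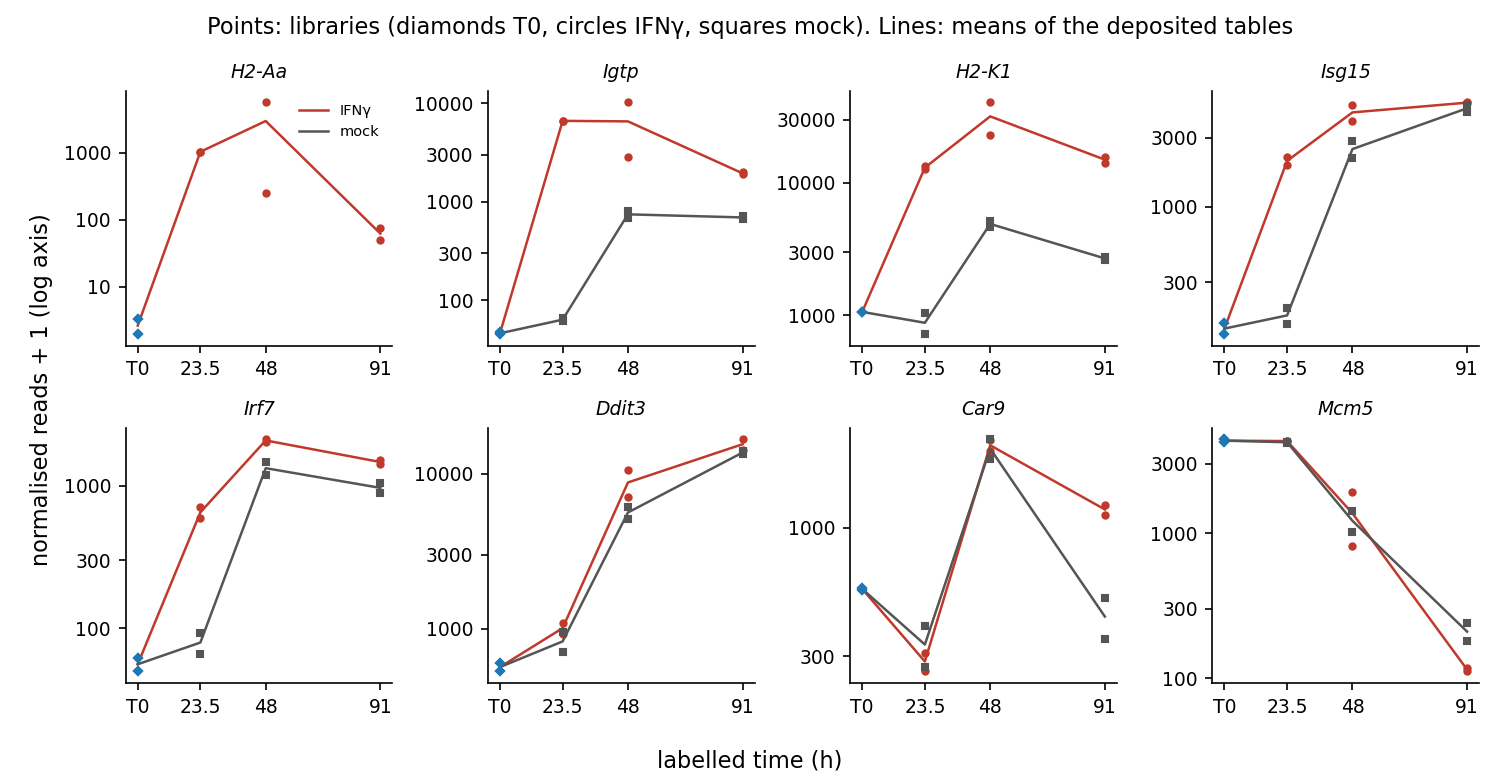
Normalised reads + 1 on log axes of 8 genes against the labelled time in hours; diamonds are T0, circles IFNγ, squares mock and lines the authors' means, and H2-Aa was not listed in the mock tables. The IFNγ points at 48 h lie far apart for H2-Aa and Igtp and close together for Irf7 and Car9, and Mcm5 declines in both courses.

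The libraries were of similar depth, with 23230611 and 17567764 reads in recovered genes at 48 h and 20007382 and 19903769 at 23.5 h. An 18S ribosomal RNA entry, Rn18s-rs5, held 9.77% of the gene total at 48 h and 9.47% at 23.5 h. All 8 melanoma markers were listed at both times, and 0 of the 5 that could be tested passed limma (0 higher and 1 lower at an unadjusted p under 0.05). Of markers of other cells, 0 of 9 keratinocyte, 1 of 13 T cell, 2 of 15 myeloid, 6 of 11 fibroblast and 1 of 9 endothelial genes were listed. The summed fibroblast level was 485 and 372 at 48 h against 414 and 425 at 23.5 h. The myeloid sums, 42.5 and 59.6 against 22.7 and 35.2, do not cover the same genes. Lyz2, at 21.3 and 26.1, counts only at 48 h because it had no value at 23.5 h. The 1 myeloid gene listed at both times had a log2 ratio of -0.08, and its groups overlapped. The endothelial gene, Vwf, which encodes von Willebrand factor, rose, with 897 and 1068 against 373 and 346 (1.44, SE 0.14, adjusted p = 0.0443), and the T cell gene Lck had 157 and 144 against 56.8 and 76.1 (adjusted p = 0.057). In mock cells the log2 ratio of 48 h over 23.5 h was 0.87 for Vwf and 1.75 for Lck. The cells were 1 clone in culture, and whether any other cells were present was not tested.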

How the data were processed

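The data are polyA RNA-seq of 7 samples, deposited as 6 tables that each compare T0 with 1 other group; the IFNγ groups at 48 h and 23.5 h are compared here. Builds mm10 and GRCm38, the aligner STAR 2.5.0a, HTSeq 0.5.3, Picard 1.124 and DESeq are named in the labels' tool list, per the submitters' processing notes. Which annotation and strand option were used, how multi-mapping reads were counted and when a gene was listed is not given in the sources used here. Per the file headers, each table gives the authors' mean signal of the gene in both groups, here called normalised reads. The deposited log2 fold changes and the authors' deposited p-values were not used.

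Each deposited mean is a sum over 2 libraries of whole reads times a fixed step. The reads of both libraries were solved from it by trying every whole-number pair whose mean lay within 1.2 times the rounding error of a 10-digit value. Above 20000 normalised reads only pairs within a log2 ratio of 2 were tried. Of 157036 values, 156055 (99.4%) gave 1 pair. This procedure and the limma fits were also run on simulated data, with outcomes not given here. For limma the simulated 48 h libraries scattered gene by gene, whereas the real pair differed across whole gene lists. The error rate of limma for such a pair was therefore not tested. Entries that name no gene (4 in the 48 h table, 62.8% of its listed total, and 0 in the 23.5 h table) were left out, and 0 value columns were unused. Tables were put on 1 scale by the median ratio of their T0 means.

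The log2 ratio is log2 of (48 h mean + 1) over (23.5 h mean + 1), which understates changes of low genes. limma 3.58.1 in R 4.3.3, with a variance trend, was fitted to log2(normalised reads + 1) of 4 libraries, or 8 for the difference from mock, two-sided with Benjamini-Hochberg adjustment over all genes tested. An exact permutation test of 2 against 2 libraries cannot go below p = 0.333 and was not used. SE and adjusted p belong to limma's difference of mean log2 values. Python 3.11.15, numpy 2.4.6, pandas 2.3.3, scipy 1.17.1 and matplotlib 3.10.9 were also used. Gene positions are those of the reference annotation in GRCm38, and promoters are RefSeq's in GRCm38.p6.

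The members, the gene lists and the rules were chosen with earlier results of these data known. Genes were named as members of the lists, by the widest separation of the groups (15 each way), by the widest gap between the 48 h libraries (8 each way), and as IFNγ pathway genes. Further list members were named after their values were seen. Results of some genes that count among those tested are not reported here. The alternatives were other scalings, pseudocounts, level minimums, variance models and tests, and each library left out in turn. The counts per gene list with 1 48 h library left out were added after seeing the data.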

Additional observations from a re-analysis of the deposited data

Results flagged for a closer look

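For 38 genes the change between 23.5 h and 48 h with IFNγ differed from the change in mock cells by limma's interaction term over 8 libraries (adjusted p from 0.0123 to 0.047, Benjamini-Hochberg over 12453 genes). Every difference below is the IFNγ log2 change minus the mock log2 change, and all are below 0. The widest differences, below -2.5, were those of Apol9a at -3.25, Gbp3 at -3.05, Rtp4 at -2.99, Oasl2 at -2.91, Ifi47 at -2.84, Isg15 at -2.72, I830012O16Rik at -2.69 and Ifit3 at -2.68. Apol9a, Ifit3 and I830012O16Rik, and Trim30a listed below, have near copies in the genome and are uncertain. The absence of this remark for others of the 38 does not mean that their reads match only 1 place. Differences from -2.5 up to -2.1 included those of Parp14 at -2.44, Oas2 at -2.43, Irf7 at -2.39, Xaf1 at -2.32, Phf11d at -2.26, Trim34a at -2.19, Ddx60 at -2.18, Slfn8 at -2.14 and Oas1a at -2.13. Next, between -2.1 and -1.8, were Trim30d at -2.08, Dhx58 at -2.07, Ifi203 at -2.06, Bst2 at -2.0, Trim30a at -2.0, Ddx58 at -1.99, Ifitm3 at -1.95, Ifi35 at -1.89, Sp100 at -1.88 and Parp9 at -1.81. The smallest differences were those of Parp10 at -1.76, Cmpk2 at -1.75, Trim12c at -1.73, Trim21 at -1.64, Irf9 at -1.61, Parp12 at -1.54, Slc2a6 at -1.17, Samd9l at -1.05, Ifi27 at -1.04 and Lgals9 at -0.86. Apol9a had 2792 and 3129 normalised reads with IFNγ at 48 h against 2005 and 2075 at 23.5 h, and 315 and 216 in mock cells at 48 h against 23.9 and 13.4. In 35 of the 38 the IFNγ ratio itself was above 0, and Ifi47, Slc2a6 and Lgals9 were the exceptions. Both 48 h IFNγ libraries were below both 23.5 h libraries for Slc2a6 and Lgals9, and the groups overlapped for Ifi47. Slc2a6 had 523 and 458 with IFNγ at 48 h against 571 and 619, and 729 and 667 in mock cells against 396 and 356. The IFNγ and mock tables were normalised separately and joined through T0. The cause of the difference was not tested.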

How the results depend on the processing

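The number of genes passing limma depended on the settings more than any other value. Without a variance trend limma called 0 higher and 0 lower genes at 48 h, with 1940 and 2008 at an unadjusted p under 0.05. In 1 fit over all 14 libraries it called 2611 higher and 2913 lower, and an exact binomial test on the sums of reads, a comparison of libraries rather than conditions, called 4664 and 4820. Equal totals gave 55 lower genes, size factors computed afresh 72 and a pseudocount of 0.5 72, against 134. With each library left out in turn the counts ran from 0 to 4045 higher and from 0 to 4351 lower. The genes past 2-fold lower then ran from 142 to 571. Those separated by 1.5-fold ran from 913 to 1602 higher and from 574 to 1529 lower, against 735 and 458 with all libraries. These separation counts were bound to grow, because leaving a library out can only widen the gap between the nearest libraries of a gene. The difference from mock had 17 smaller changes without a variance trend, 78 in the fit over all libraries (and 5 larger), and from 0 to 1072 smaller and from 0 to 875 larger with a library left out. The cause of the other shifts was not tested.

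Leaving out 1 of the 48 h libraries turned the direction of 16 named genes, and their lowest and highest log2 changes were as follows. Class II genes ranged from -3.42 to 1.36 for Ciita, -2.04 to 2.46 for H2-Aa, -2.68 to 2.32 for H2-Ab1, -3.36 to 1.91 for H2-Eb1 and -0.48 to 3.14 for Cd74. Class I genes ranged from -0.58 to 0.45 for Nlrc5, -0.38 to 0.77 for Tap1, -1.16 to 1.04 for Psmb8, -0.81 to 0.98 for Psmb9 and -0.11 to 2.80 for H2-T23. GTPase genes ranged from -0.35 to 4.01 for Gbp10, -0.43 to 1.1 for Iigp1, -1.24 to 0.63 for Igtp and -1.31 to 0.024 for Irgm1. The ranges were -0.37 to 0.55 for Irf1 and -0.24 to 1.26 for Cxcl10. No other setting turned the direction of a gene in this family, and all 38 differences from mock kept theirs throughout.

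No paired analysis was possible because the library numbers come from size factors and pair no samples. Depth was 17567764 reads or more in the 4 IFNγ libraries compared, and 15714568 or more with the mock libraries of the same times, and limits mainly genes near the level of 20. With 2 libraries per time, the time and the particular wells sampled cannot be told apart.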

Other observations

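Some genes were listed in only 1 of the 2 tables and stand outside the comparison: 363 in the 48 h table, 189 of them at 20 normalised reads or more, and 45 in the 23.5 h table, 6 of them at that level. A missing gene has no value, so no fold is given. Akr1b7, an aldo-keto reductase, had 503 and 91.0 normalised reads in libraries 1 and 2 at 48 h, Neurl3 had 276 and 51.2, and Cox6a2, a muscle form of a cytochrome oxidase subunit, had 206 and 41.8. Ly6a, which encodes Sca-1 and is interferon-inducible, went the other way with 9.45 and 229, as did Gbp11 with 7.87 and 146. The libraries at 48 h thus differed here too, in both directions. Of the genes listed only at 23.5 h Cer1, a secreted inhibitor of Nodal and BMP ligands, was the highest, at 26.5 and 32.3.

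Some complement genes and other genes of the interferon response also divided the 48 h libraries. C4b, complement component 4B, had 777 and 5131 at 48 h against 1141 and 1238 at 23.5 h (limma adjusted p = 0.595). Il18bp, the decoy of interleukin 18, had 57.5 and 527 against 229 and 229, with mock cells at 12.6 and 14.4 at 48 h. Zbp1, a sensor of nucleic acids in the Z form, had 809 and 4539 against 1940 and 2240. In all 3 library 1 was the lowest of the 4 libraries and library 2 the highest. Of 5 complement genes 0 passed limma, also 0 at an unadjusted p under 0.05, 2 had both libraries above and 3 had library 2 above and library 1 below. Casp4, which senses cytosolic lipopolysaccharide, had more reads in library 1, at 1312 and 332 against 81.4 and 78.0 (limma adjusted p = 0.0677), and mock cells had 1070 and 670 at 48 h against 35.9 and 19.6. Of 16 caspase and lytic death genes 1, Xaf1, rose by limma and 0 fell. Of 21 p53 targets 0 passed, with 9 higher and 2 lower at an unadjusted p under 0.05, and 12 had both libraries above. Of 28 extracellular matrix genes 1 rose, Timp3, an inhibitor of metalloproteinases, at 5119 and 2444 against 619 and 596 (2.54, SE 0.36, limma adjusted p = 0.0498), with 0 lower. The 40 ribosomal protein genes, 28 nuclear oxidative phosphorylation genes, 24 lysosome genes and 10 retinoic acid genes each had 0 passing limma, with medians of -0.09, -0.29, -0.01 and 0.21. At an unadjusted p under 0.05 they had, in the same order, 1, 0, 3 and 4 higher and 4, 11, 1 and 2 lower.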
